A study of Mus musculus with 4 samples.

Results

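The T cell receptor alpha variable segments (Trav) were described as the 49 Trav genes listed in the authors' deposited comparison, of 103 Trav genes in the count table and 11536 genes in that comparison. They were chosen by name, with all 49 placed on mouse chromosome 14. The RNA came from thymocytes positive for both CD4 and CD8 (DP thymocytes), sorted by flow cytometry from C57BL/6 mice. The 2 KO mice are labelled Uqcrfs1fl/fl; CD4-Cre+, so that Uqcrfs1, the gene of the Rieske subunit of complex III in the respiratory chain, is deleted in cells in which Cd4 regulatory sequence drives Cre. The genotype label of the 2 control mice is WT, although heterozygous littermates are named as controls elsewhere in the submitters' text, and no label says whether they carried Cre. "WT" is therefore only the name of that group. The titles number the libraries 1 and 2 in each group, and no label says what a number stands for. No label names a treatment or an age.

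A T cell receptor alpha chain is made when a DP thymocyte joins 1 Trav segment to 1 joining segment (Traj) by cutting the DNA with the RAG recombinase. The joined exon is then spliced to the single constant gene, Trac. Trav segments lie upstream of Traj, and a cell can recombine the same allele repeatedly. The first joins tend to use Trav segments near Traj and Traj segments at the 5′ end of their cluster, and later joins reach outward to distal Trav segments and to 3′ Traj segments. The Trav cluster of C57BL/6 mice holds repeated blocks, whose copies carry a d or an n in their names. Segments with "dv" in the name can also be joined into T cell receptor delta chains.

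The 49 segments lay on the plus strand of the mm10 build between chr14:52427928 and chr14:53876751, a span of 1449 kb. The farthest, Trav1, ended 1726 kb before Traj61, the first Traj segment, and the nearest, Trav21-dv12, ended 278 kb before it. Ordered by position, they were divided into a distal group of 17 segments from Trav1 to Trav8n-2 (chr14:52427928-53346420), a middle group of 16 from Trav16n to Trav12-2 (chr14:53351090-53616912) and a proximal group of 16 from Trav12-3 to Trav21-dv12 (chr14:53621657-53876751). Of these, 2 (Trav9n-1 and Trav8-2) are annotated as pseudogenes in GENCODE M21.

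Copies of a segment differ by few bases, and a read that falls where they are alike cannot be assigned to a single gene. The 3 following sequences show this for Trav8-2, whose level separated the libraries most, and its copies Trav8d-2 (distal) and Trav8n-2 (distal). Each is a stretch of 90 bases of the plus strand near the 3′ end of the V exon, from the GENCODE M21 transcripts (GRCm38/mm10), with the positions that differ within the set in capitals.
Trav8-2, chr14:53738749-53738838: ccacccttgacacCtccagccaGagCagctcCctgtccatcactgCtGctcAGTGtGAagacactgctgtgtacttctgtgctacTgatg
Trav8d-2, chr14:53042802-53042891: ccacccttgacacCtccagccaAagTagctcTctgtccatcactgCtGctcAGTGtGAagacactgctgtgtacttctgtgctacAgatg
Trav8n-2, chr14:53346335-53346424: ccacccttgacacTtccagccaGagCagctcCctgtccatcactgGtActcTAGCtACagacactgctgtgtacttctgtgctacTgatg
Within the stretch Trav8-2 differed from Trav8d-2 at 4 bases and from Trav8n-2 at 9, and over their aligned transcripts the identity was 94.4% and 94.96%.

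The Trav16 set, shown for the same reason, was closer still.
Trav16, chr14:53743616-53743705: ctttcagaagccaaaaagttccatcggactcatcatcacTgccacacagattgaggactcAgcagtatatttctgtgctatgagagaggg
Trav16d-dv11, chr14:53047732-53047821: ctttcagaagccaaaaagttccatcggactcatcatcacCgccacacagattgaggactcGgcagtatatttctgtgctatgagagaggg
Trav16n, chr14:53351532-53351621: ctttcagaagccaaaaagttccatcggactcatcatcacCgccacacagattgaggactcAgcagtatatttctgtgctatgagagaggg
Trav16 differed here from Trav16d-dv11 at 2 bases and from Trav16n at 1 base, with identities of 97.4% and 98.5% over the aligned transcripts. In Trav11 and Trav11d, the segments of the invariant alpha chain of iNKT cells, the aligned transcripts matched at 342 of 342 bases, so the stretch of either is shown as a single sequence that holds no capitals.
Trav11d, chr14:52824823-52824912: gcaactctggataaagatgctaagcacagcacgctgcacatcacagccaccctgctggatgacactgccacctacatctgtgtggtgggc
Neither Trav11 copy was among the 49 segments. Trav11d had 1 and 0 counts in KO replicates 1 and 2, against 0 and 0 counts in WT replicates 1 and 2, and Trav11 had 0 and 0 in KO, against 1 and 0 in WT.

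The share of 50-base windows of a transcript found in no other Trav gene was used as a measure of how far its reads can be assigned. It describes the GENCODE M21 transcript, which can be shorter than the gene in the count table. Trav8-2, for example, has 288 windows in all, 64.6% of them unique, but an annotated length of 2707 bases. Its share therefore covers only a part of that length. For the 49 segments its median was 61.7%, and it ran from 12.8% in Trav6-3 to 100% in 6 segments (Trav1, Trav2, Trav5-1, Trav17, Trav19 and Trav21-dv12). In 37 of the 49, the closest other Trav gene was at least 95% identical. Of the 103 Trav genes, 31 held no unique window, and 26 of these had 0 counts in every library, with at most 25 counts summed over the libraries in the others. All 41 genes with at least 50% unique windows had counts, from 21 to 1079 summed over the 4 libraries. Of the 28 Trav genes at 0 counts, the largest share of unique windows was 1.75%. A count of 0 for a duplicated segment therefore cannot be read as absence of its RNA, and levels of the 13 listed segments under 50% unique windows are uncertain. In bulk RNA, fewer cells that use a segment and less RNA per cell cannot be told apart.

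**Figure D1:**
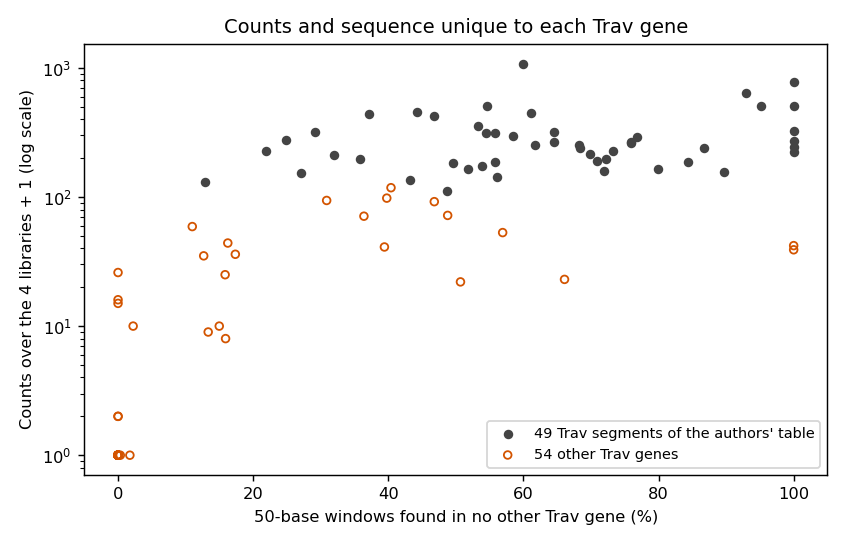
Counts summed over the 4 libraries plus 1 (log scale) against the percentage of 50-base windows found in no other Trav gene, for the 49 Trav segments of the authors' table (filled) and the 54 other Trav genes (open). The genes with no unique window lie at the lower left, with at most 25 counts.

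The authors' table holds genes with at least 1 CPM (a gene's counts scaled to the gene counts of its library) in at least 2 libraries. Among the 49 segments, 33 reached 1 CPM in all 4 libraries and 5 in exactly 2. Of the 54 Trav genes left out, 26 had counts, 4 reached 1 CPM in 1 library and 50 in none. Those 5 just inside were Trav9n-1, Trav6-3, Trav8-2, Trav16 and Trav14-3, and in each of them the 2 libraries carried the same number in the titles. Trav9n-1, for example, had 0.616 and 1.17 CPM in KO replicates 1 and 2, against 0.457 and 1.251 CPM in WT replicates 1 and 2. Just outside was Trav9-1, with 0.880 and 0.977 CPM in KO, against 0.396 and 1.42 CPM in WT.

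Gene counts ran from 30408863 to 34080516 per library. Uqcrfs1 stood at 15.6 and 18.6 CPM in KO replicates 1 and 2, against 61.4 and 57.2 CPM in WT replicates 1 and 2 (log2 change -1.80, SE 0.09, edgeR quasi-likelihood adjusted p = 0.000178). The DP markers Cd4, Cd8a, Cd8b1, Rag1, Rag2, Dntt, Ptcra, Themis and Arpp21 were detected in every library. Cd4 stood at 2068 and 2086 CPM in KO, against 1933 and 2091 CPM in WT, and Cd8a at 3000.4 and 2952 CPM in KO, against 3172 and 3224 CPM in WT. Markers of other cells differed between libraries. The 5 measured gamma delta T cell markers summed to 4.13 and 17.4 CPM in KO, against 4.63 and 3.46 CPM in WT. The 6 myeloid markers summed to 15.8 and 39.0 CPM in KO, against 17.8 and 16.5 CPM in WT, so that both sums were highest in KO replicate 2. The 7 markers of the earlier double-negative stage summed to 132 and 175 CPM in KO, against 103 and 106 CPM in WT. Most of each sum was Notch3, at 82.5 and 98.4 CPM in KO, against 65.8 and 65.0 CPM in WT. Notch3, Il2ra, Dtx1 and Cd44 were each higher in both KO libraries, while Hes1, Kit and Il7r overlapped between KO and WT. The 6 mature T cell markers summed to 291 and 302 CPM in KO, against 281 and 278 CPM in WT. The 5 NKT effector markers summed to 2.76 and 6.58 CPM in KO, against 4.38 and 3.39 CPM in WT, with Zbtb16, their defining factor, at most at 0.198 CPM. The 4 B cell markers summed to 2.17 and 3.25 CPM in KO, against 1.67 and 1.38 CPM in WT. The part of these markers in the Trav values was not tested.

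Trav RNA as a whole was at a similar level in KO and WT thymocytes. The 49 segments held 3889 and 3687 counts in KO replicates 1 and 2, against 3545 and 3474 in WT replicates 1 and 2, between 0.0108% and 0.0116% of gene counts. That is 114 and 116 CPM in KO, against 108 and 114 CPM in WT, with means of 115 ± 1.5 and 111 ± 4.54 CPM (SD, n = 2 each). The summed level was 1.04 times as high in KO as in WT, a difference within the spread of the WT libraries. Trac, the constant gene, had 12502 and 12814 counts in KO, against 11580 and 11392 in WT (log2 change 0.08, SE 0.06, adjusted p = 0.715 by edgeR's quasi-likelihood test). For each 100 Trac counts there were 31.1 and 28.8 Trav counts in KO, against 30.6 and 30.5 in WT.

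No segment dominated. In each library 14 or 15 segments together made up 50% of the Trav counts, and the most abundant, Trav3-3, held 7.02% and 8.79% of them in KO, against 6.06% and 7.69% in WT. Mean levels over the 4 libraries ran from 0.872 CPM in Trav9n-1 to 8.39 CPM in Trav3-3, with a median of 1.95 CPM. Per kb of annotated gene length the order changed: Trav21-dv12 was first at a mean of 16.8 CPM per kb, followed by Trav15-1-dv6-1 at 14.3, Trav3-3 at 12.1, Trav13-1 at 11.96 and Trav14-1 at 10.9. The same 5 segments led by CPM. They lie in the middle and proximal groups.

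None of the 49 segments was called between KO and WT by edgeR's quasi-likelihood test at an adjusted p under 0.05, against 0.0226% of the 13281 tested genes (3 genes). At an unadjusted p under 0.05 the count was 0 of 49 as well, against 8.4% of all tested genes, and DESeq2 called 0. In the authors' deposited table, where 0.693% of genes had an adjusted p under 0.05, the smallest adjusted p of a Trav segment was 0.801. The log2 change was above 0 for 28 segments, against 49.9% of all tested genes, and below 0 for 21. Its median over the segments was 0.05, against 0.00 over all tested genes, but -0.07 without WT replicate 1 and -0.03 without KO replicate 2. KO and WT libraries did not overlap in 10 segments (20.4%), against 40.5% of all tested genes. KO stood above WT in 6 of them (20.4% of all tested genes) and below in 4 (20.1% of all tested genes).

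**Figure D2:**
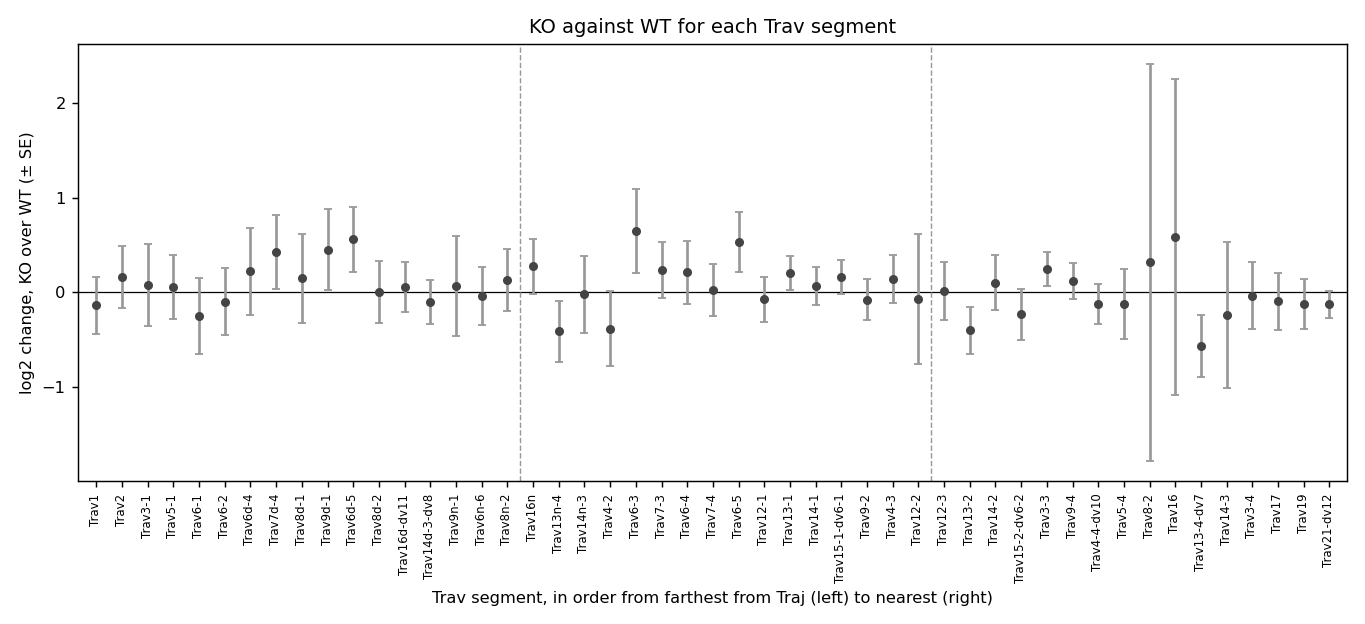
Fitted log2 change, KO over WT, with its standard error for each of the 49 Trav segments, ordered from farthest from Traj (left) to nearest (right). Dashed lines part the distal, middle and proximal groups. Values lie between -0.57 and 0.65, and the longest bars, of 2.10 and 1.67 either side, belong to Trav8-2 and Trav16.

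Trav3-3, in the proximal group, had 8.0 and 10.2 CPM in KO replicates 1 and 2, against 6.55 and 8.79 CPM in WT replicates 1 and 2. The groups overlapped, and its log2 change was 0.25 (SE 0.18, edgeR adjusted p = 0.710). Trav21-dv12, the segment nearest Traj and one with no window shared with another Trav gene, had 5.69 and 5.86 CPM in KO, against 6.42 and 6.19 CPM in WT. Here both KO libraries were below both WT libraries, by a log2 change of -0.13 that did not pass the test (SE 0.14, adjusted p = 0.819). It was the most precisely measured of the 49.

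Trav15-1-dv6-1, one of the segments shared with the delta chain, had 4.66 and 5.86 CPM in KO, against 5.02 and 4.38 CPM in WT (log2 change 0.16, SE 0.18, adjusted p = 0.822, edgeR). Trav14-1 had 4.19 and 3.81 CPM in KO, against 4.29 and 3.36 CPM in WT (log2 change 0.06, SE 0.20, adjusted p = 0.944). In both the libraries of KO and WT overlapped, and the sign of the change turned when single libraries were left out, between -0.01 and 0.31 in Trav15-1-dv6-1 and between -0.10 and 0.25 in Trav14-1. Trav13-1 had 4.02 and 4.35 CPM in KO, against 3.59 and 3.69 CPM in WT, without overlap and without passing the test (log2 change 0.20, SE 0.18, adjusted p = 0.782). Trav1, the most distal segment and that of the invariant chain of MAIT cells, had 1.76 and 2.24 CPM in KO, against 1.71 and 2.70 CPM in WT. Its log2 change of -0.14 (SE 0.30, adjusted p = 0.915) ran from -0.44 to 0.22 with single libraries left out, and was 0.22 without WT replicate 2 and 0.02 without KO replicate 1.

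At the ends of the range of changes stood 2 segments with few unique windows. Trav13-4-dv7 had 1.03 and 0.882 CPM in KO, against 1.61 and 1.22 CPM in WT (log2 change -0.57, SE 0.32, adjusted p = 0.660), and 27.1% of its windows were unique. Trav6-3 had 1.495 and 0.914 CPM in KO, against 1.04 and 0.494 CPM in WT (log2 change 0.65, SE 0.44, adjusted p = 0.696), with 12.8% unique windows.

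By position, the KO-to-WT change had a median of 0.07 in the distal group, where 12 of 17 segments were above 0, 0.10 in the middle group (10 of 16) and -0.11 in the proximal group (6 of 16), all without a called segment. The 4 segments in which both KO libraries lay below both WT libraries (Trav13-2, Trav13-4-dv7, Trav19 and Trav21-dv12) were all proximal. Of the 6 in the other direction, Trav6d-5 was distal, Trav16n, Trav6-5, Trav13-1 and Trav4-3 were middle, and Trav9-4 was proximal. KO lay below WT in 4 of 16 proximal segments, against 20.1% of all tested genes. It lay above WT in 4 of 16 middle segments, against 20.4% of all tested genes. Both counts are near the share over all tested genes. They were read after the values were seen, and the groups of segments were not tested against each other.

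Between the libraries numbered 1 and those numbered 2, the segments differed along the locus, in KO and in WT alike. In the distal group most segments were lower in the replicate 1 libraries, and in the proximal group most were higher there. Trav8-2 and Trav16 had entered the authors' table through the replicate 1 libraries alone. They were more than 8-fold higher there on the CPM scale with 0.1 CPM added. This was noticed after the values were seen, so it is given as a description with no test.

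Both libraries numbered 1 stood outside the range of both numbered 2 in 31 of the 49 segments (63.3%), against 28.3% of all tested genes. The replicate 1 libraries were above in 13 segments (13.9% of all tested genes) and below in 18 (14.4% of all tested genes). For the 5 segments that entered the table through 2 libraries of the same number the separation follows from the entry rule, and without them it was 26 of 44 (59.1%). By position, replicate 1 was below in 12 and above in 1 of 17 distal segments, below in 5 and above in 4 of 16 middle segments, and below in 1 (Trav3-3) and above in 8 of 16 proximal segments. Without those 5 segments, it was below in 11 and above in 1 of 16 distal segments, below in 5 and above in 3 of 15 middle segments, and below in 1 and above in 5 of 13 proximal segments.

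Among distal segments, Trav3-1 shows the pattern at 1.32 and 2.96 CPM in KO replicates 1 and 2, against 1.40 and 2.67 CPM in WT replicates 1 and 2. Trav5-1, whose windows are all unique, had 1.91 and 3.28 CPM in KO, against 1.83 and 3.16 CPM in WT. Trav2, also with unique windows only, had 1.58 and 2.46 CPM in KO, against 1.40 and 2.21 CPM in WT. In all 3 the replicate 2 libraries were the higher ones, and KO and WT libraries of the same number lay close together. Their log2 ratios of replicate 1 to replicate 2 lay between -1.11 (Trav3-1 in KO) and -0.60 (Trav2 in KO). Trav8d-1 had 1.82 and 3.34 CPM in KO, against 1.31 and 3.36 CPM in WT, and Trav16d-dv11 had 2.79 and 4.16 CPM in KO, against 2.77 and 3.92 CPM in WT. The distal segment with the opposite separation was Trav8n-2, the nearest of that group to Traj, with 1.35 and 1.20 CPM in KO, against 1.37 and 0.955 CPM in WT.

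In the proximal group, Trav17, with unique windows only, had 4.93 and 2.55 CPM in KO replicates 1 and 2, against 4.48 and 3.52 CPM in WT replicates 1 and 2. Trav14-3 had 1.32 and 0.567 CPM in KO, against 1.89 and 0.329 CPM in WT. In both segments the replicate 1 libraries were higher in KO and in WT. For Trav14-3, which entered the table through these libraries alone, this follows from the entry rule. The 2 segments nearest Traj, Trav19 and Trav21-dv12, differed little by number. Trav19 had 1.67 and 1.61 CPM in KO, against 1.86 and 1.71 CPM in WT. In the middle group Trav12-2 was high in replicate 1, at 2.32 and 0.473 CPM in KO, against 1.92 and 1.02 CPM in WT, while Trav4-2 was low there, at 1.06 and 1.86 CPM in KO, against 1.31 and 2.502 CPM in WT.

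Trav8-2 had 172 and 8 counts in KO replicates 1 and 2, against 135 and 4 counts in WT replicates 1 and 2. Scaled to gene counts, replicate 1 exceeded replicate 2 by 20.0 times in KO (95% exact interval 9.93 to 47.1) and by 31.2 times in WT (11.9 to 116). Trav16, its neighbour, had 93 and 7 counts in KO, against 61 and 3 in WT, with ratios of 12.4 (5.77 to 31.6) in KO and 18.8 (6.14 to 93.7) in WT. Such intervals cover counting error only, since reads without molecular identifiers are not independent molecules. Both segments entered the authors' table through the replicate 1 libraries alone, so their separation by number follows from the entry rule. The intervals do not allow for that choice. The difference between KO and WT in these 2 segments was small beside the difference by number: the log2 change was 0.32 (SE 2.10, edgeR adjusted p = 0.979) in Trav8-2 and 0.58 (SE 1.67, adjusted p = 0.942) in Trav16. Of their copies, Trav8d-2 and Trav16d-dv11 were lower in replicate 1 in both groups, Trav16n differed little by number, and Trav8n-2 was higher in replicate 1 by less than 1.5-fold. Trav8d-2 stood at 1.73 and 2.83 CPM in KO, against 1.77 and 2.80 CPM in WT. Trav16n had 1.53 and 1.58 CPM in KO, against 1.248 and 1.32 CPM in WT. Of the windows of Trav8-2, 64.6% were unique, and of those of Trav16, 51.8%. Summed over the 4 listed Trav8 segments the level was 9.94 and 7.62 CPM in KO, against 8.56 and 7.24 CPM in WT. Over the 3 listed Trav16 segments it was 7.04 and 5.95 CPM in KO, against 5.88 and 5.33 CPM in WT. How far reads were shared between these copies was not tested.

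Of 13281 tested genes, 8 (0.0602%) were at least 4-fold apart by number in both KO and WT, with 0.1 CPM added. Besides Trav8-2 and Trav16 they held a Trav gene outside the authors' table, Trav6-7-dv9, which lies upstream of Trav8-2 and had 38 and 0 counts in KO replicates 1 and 2, against 31 and 2 in WT replicates 1 and 2. A further gene on chromosome 14 was Ppp1r3e, a regulatory subunit of protein phosphatase 1, 650 kb beyond Trac, with 68 and 11 counts in KO, against 63 and 7 in WT. The others were Zbtb8a on chromosome 4, a BTB zinc finger gene with 192 and 13 counts in KO, against 146 and 12 in WT, and 3 immunoglobulin variable segments (Ighv5-17, Igkv1-110 and Igkv5-48), which were higher in replicate 2. Chromosome 14 held 542 of the tested genes.

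**Figure D3:**
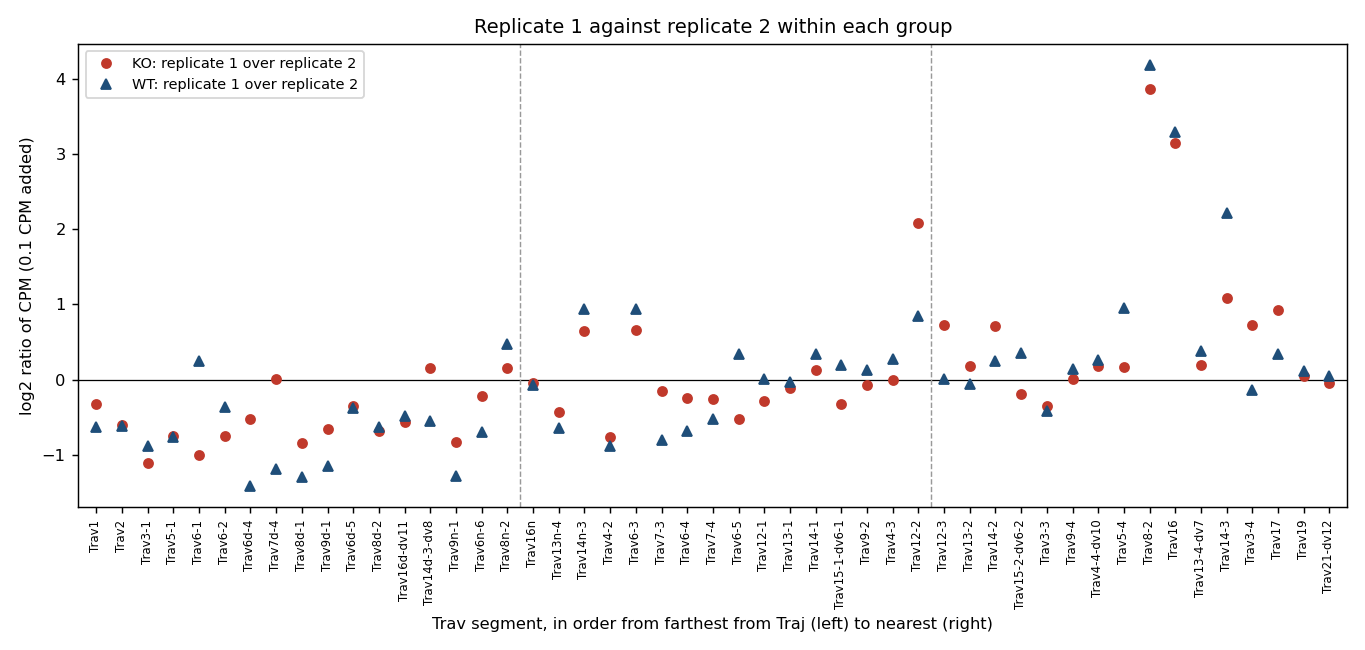
Log2 ratio of replicate 1 to replicate 2, from CPM with 0.1 CPM added, within KO (red circles) and within WT (blue triangles) for the 49 Trav segments, farthest from Traj on the left. Distal segments lie mostly below 0 in both groups and proximal segments mostly above 0, with Trav8-2 at 3.87 in KO and 4.18 in WT. Trav8-2 entered the authors' table through the replicate 1 libraries alone, so its separation by number follows from the entry rule.

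The ratio of replicate 1 to replicate 2 had a median log2 of -0.60 in KO and -0.64 in WT over the distal segments, -0.13 in KO and 0.07 in WT over the middle ones, and 0.19 in KO and 0.26 in WT over the proximal ones. Across the 49 segments the KO and WT ratios correlated with Pearson's r = 0.86, with r = 0.68 without Trav8-2 and Trav16 (47 segments), and with r = 0.61 without the 5 segments that entered the table through 2 libraries (44 segments). Over the 36 segments with at least 50% unique windows r was 0.89, a value that rests on Trav8-2 and Trav16: without them it was 0.66 (34 segments). Across the 45 tested Traj segments it was 0.00, and across all 13281 tested genes 0.09. The Traj value rests on fewer counts: the 59 Traj segments held 1207 to 1516 per library, against 3474 to 3889 in the 49 Trav segments. Of the 45 tested Traj segments, the replicate 1 libraries stood above in 2 and below in 10. Over all tested genes these shares were 13.9% and 14.4%. Segments are not independent replicates: each point rests on the same 4 libraries, and copies share reads.

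In shares of the summed Trav counts, the distal segments held 24.6% (95% exact binomial interval 23.2 to 25.9) and 34.6% (33.1 to 36.2) in KO replicates 1 and 2, against 22.6% (21.3 to 24.0) and 35.1% (33.5 to 36.7) in WT replicates 1 and 2. The proximal segments held 43.5% (41.9 to 45.1) and 32.5% (31.0 to 34.1) in KO, against 44.9% (43.2 to 46.5) and 34.0% (32.4 to 35.6) in WT. The middle segments held 32.0% and 32.8% in KO, against 32.5% and 30.9% in WT. The distal and proximal shares thus lay together by number and not by genotype. KO exceeded WT by 0.726 percentage points in the distal share, with SDs of 7.11 and 8.81 points between the KO and between the WT libraries (n = 2 each), and the sign of this difference depended on the libraries kept (-5.51 without WT replicate 1, 6.96 without WT replicate 2, 5.75 without KO replicate 1, -4.30 without KO replicate 2). In the proximal share KO was below WT by a difference of -1.41 points (4.02, -6.84, -6.88 and 4.06 points without WT replicate 1, WT replicate 2, KO replicate 1 and KO replicate 2). Without Trav8-2 and Trav16 the proximal share was 39.3% and 32.3% in KO, against 41.6% and 33.9% in WT.

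**Figure D4:**
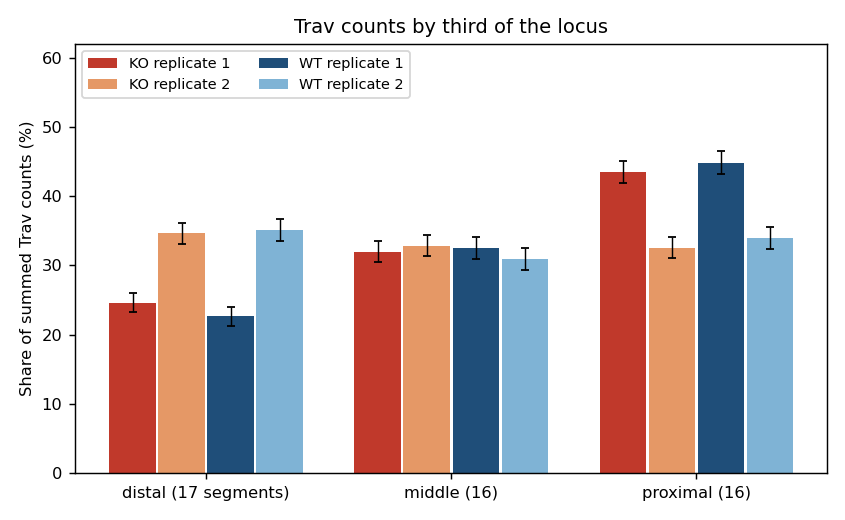
Share of the summed Trav counts (%) in the distal, middle and proximal segments, for each library, with 95% exact binomial intervals that cover counting error only. The distal shares of both replicate 2 libraries, 34.6% and 35.1%, stand above those of both replicate 1 libraries, 24.6% and 22.6%, and the proximal shares run the other way.

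The mean distance of a Trav count from Traj61 was 711 and 816 kb in KO replicates 1 and 2, against 694 and 814 kb in WT replicates 1 and 2. The KO mean exceeded the WT mean by 9.52 kb, far less than the gap between the libraries of either group, and ran from -50.2 to 69.2 kb with single libraries left out (-50.2 without WT replicate 1, 69.2 without WT replicate 2, 61.7 without KO replicate 1 and -42.7 without KO replicate 2). Segments of the d copies (8 segments) held 14.1% and 18.6% of Trav counts in KO, against 11.2% and 19.2% in WT, so they were higher in replicate 2 as well. The n copies (6 segments) held 7.17% and 7.57% in KO, against 7.36% and 8.23% in WT. Segments without either letter (35) held 78.8% and 73.8% in KO, against 81.4% and 72.6% in WT.

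**Figure D5:**
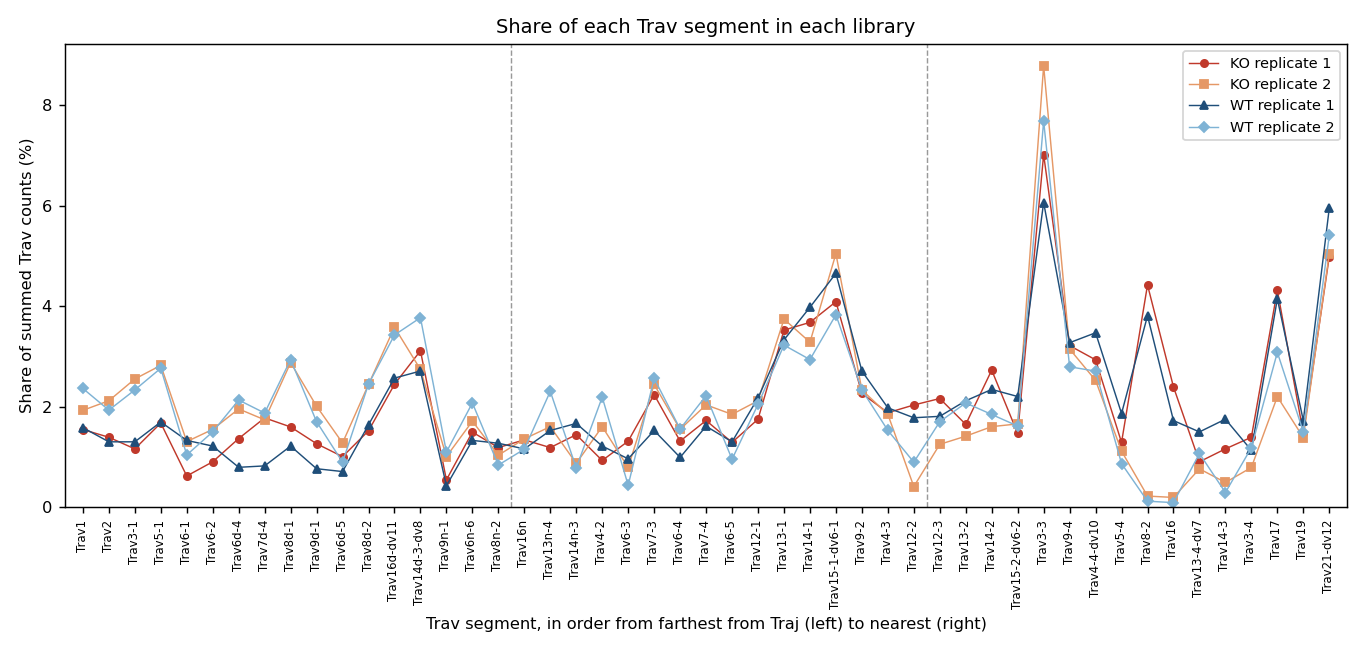
Share of each of the 49 Trav segments in the summed Trav counts of each library (%), ordered from farthest from Traj (left) to nearest (right). The lines of KO and WT replicate 1 run together, as do those of KO and WT replicate 2, most visibly at Trav8-2. This segment holds 4.42% and 0.217% in KO replicates 1 and 2, against 3.81% and 0.115% in WT replicates 1 and 2. It entered the authors' table through the replicate 1 libraries alone, so its separation by number follows from the entry rule.

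The share of Trav counts that would have to move between segments to make 2 libraries equal was 9.03% between KO and WT replicate 1 and 7.99% between KO and WT replicate 2. It was 16.7% between the KO libraries and 18.8% between the WT libraries. Chi-square per degree of freedom over the segments was 2.06 and 1.69 for the pairs with the same number, and between 9.20 and 9.91 for the other 4 pairs. Without Trav8-2 and Trav16 it was 2.02 and 1.71 for the pairs with the same number, and between 4.69 and 6.71 for the others. Without all 5 segments that entered the table through 2 libraries (44 segments left), it was 1.99 and 1.69, and between 3.97 and 6.32. Over all tested genes the pairs with the same number were not the closest: the values were 10.1 for replicate 1 and 7.65 for replicate 2, against 4.76 between the KO libraries and 8.94 between the WT libraries.

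The Traj segments, the joining partners, were set beside the Trav segments. The count table holds 59, of which 45 were tested, and 0 were called between KO and WT by edgeR, 0 at an unadjusted p under 0.05 and 0 by DESeq2. The log2 change was above 0 in 28 and below 0 in 17. Among the 12 tested segments at the 5′ end (Traj61 to Traj41) 2 were above 0, with a median of -0.22, and among the 19 at the 3′ end (Traj20 to Traj1) 17 were above 0, with a median of 0.33. The 3′ count fell to 11 of 19 (median 0.08) without WT replicate 1 and to 12 of 19 (median 0.18) without KO replicate 2, while the 5′ count was 6 of 12 (median 0.00) without KO replicate 1. Without WT replicate 2 the 3′ median was 0.62. The 3′ segments held 56.0% and 57.8% of Traj counts in KO replicates 1 and 2, against 46.2% and 56.1% in WT replicates 1 and 2, so that WT replicate 1 stood apart from the other libraries.

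Traj2, with the highest mean level of these segments, had 126 and 147 counts in KO, against 110 and 124 in WT (log2 change 0.16, SE 0.21, edgeR adjusted p = 0.841). Traj4 had 104 and 113 counts in KO, against 54 and 89 in WT (log2 change 0.53, SE 0.29, adjusted p = 0.650). Traj18, the partner of Trav11 in iNKT cells, had 10 and 21 counts in KO, against 17 and 11 in WT, and the groups overlapped (log2 change 0.10, SE 0.53, adjusted p = 0.969). Traj33, the partner of Trav1 in MAIT cells, had 6 and 6 counts in KO, against 2 and 3 in WT, too few to enter the test.

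Genes that act on the locus did not pass the test. Of 17 transcription factors, architectural proteins and cohesin components, 12 had a log2 change above 0 (median 0.02), with 0 called in either direction. Those with the smallest p were Nipbl, the cohesin loader (log2 change 0.14, SE 0.05, edgeR adjusted p = 0.560), Myb (0.13, SE 0.05, adjusted p = 0.562) and Gata3 (-0.11, SE 0.05, adjusted p = 0.601). Of 5 recombination genes 2 were above 0 (median -0.04), with 0 called. Rag1, the catalytic RAG subunit, had 6415 and 6592 CPM in KO, against 5475 and 6464 CPM in WT (log2 change 0.12, SE 0.07, adjusted p = 0.672). Bcl2l1, which encodes the survival protein Bcl-xL and is tied to the lifespan of DP thymocytes, had a log2 change of -0.10 (SE 0.05, adjusted p = 0.618). In the delta locus, which lies between Trav and Traj, Trdv1 had 116 and 101 counts in KO, against 186 and 105 in WT (log2 change -0.47, SE 0.25, adjusted p = 0.637).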

How the data were processed

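RNA-seq of sorted DP thymocytes gave 4 libraries, 2 KO and 2 WT, grouped by genotype label and numbered by title. Nothing in the labels says more than that each came from a mouse, so p-values measure the spread between these libraries. The submitters' processing notes name Trimmomatic 0.33 for trimming, STAR 2.5.2 for alignment to mm10 and HTSeq for counting. Not given in the sources used here are read length, HTSeq mode, strand setting and annotation. Reads that span a Trav, a Traj and a Trac exon, or that fit several copies, may have been left out: reads with more than 1 alignment were 23.2% to 24.7% of aligned reads.

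The deposited values are raw counts per gene. The authors' deposited table gives CPM, log2 fold changes, p-values and a likelihood ratio score from edgeR. HTSeq's summary lines entered neither totals nor tests, and of uniquely aligned reads 19.9% to 20.6% in KO and 17.2% to 18.6% in WT fell outside annotated exons.

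All counts were fitted in edgeR 4.0.16 under R 4.3.3 (quasi-likelihood F test, robust, TMM, group alone as a term) after filterByExpr with a minimum count of 10 and a minimum total of 15. Benjamini-Hochberg adjustment ran over all 13281 tested genes, with calls at an adjusted p under 0.05. The SE is the absolute log2 change over the square root of F, and CPM uses TMM-scaled totals. DESeq2 1.42.0 was an alternative.

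Coordinates are those of the count table (mm10). Sequences and windows came from GENCODE M21 transcripts (GRCm38/mm10), in which all 49 names matched and all 49 positions overlapped, 10 with the same start and end.

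The segments and gene lists were chosen with earlier results of these data known. Named genes were the first and last segment, Trav11, Trav11d and Trav1, the 5 segments of highest mean CPM and any with an unadjusted p under 0.05 or an authors' adjusted p under 0.05 (0 segments), the 3 largest and 3 smallest changes at 5 CPM or more (2 segments in all), with Traj18, Traj33, the 2 highest Traj segments, and up to 3 genes of each list. Other named segments, the genes 4-fold apart by number and the comparison by number were chosen after their values were seen.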

Additional observations from a re-analysis of the deposited data

How the results depend on the processing

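The number of Trav segments called between KO and WT was 0 under every alternative run: RLE or no normalization factors, no filter, at least 1 CPM in at least 2 libraries, DESeq2, scaling to summed Trav counts, the replicate block and each library left out. With 1 library left out, the lone library of its group is assumed to vary like the others, and the segments at an unadjusted p under 0.05 numbered 1, 5, 3 and 2 without WT replicate 1, WT replicate 2, KO replicate 1 and KO replicate 2. Traj segments called were 0 under the same alternatives except scaling to summed Trav counts, which was not run for them. Over all genes the number called was 3, and it was 191 without a filter, 22 with DESeq2, 27 with the replicate block and 41 to 365 with 1 library left out. The cause was not tested.

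The replicate numbers could not be shown to pair the mice. Over all tested genes the deviations of same-numbered libraries correlated at 0.09. With the replicate block 27 genes were called, among them the 3 called without it, and 0 Trav segments, with a smallest adjusted p of 0.647.

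With 1 library left out, the log2 change ran from -0.44 to 0.22 in Trav1, from -0.10 to 0.25 in Trav14-1 and from -0.01 to 0.31 in Trav15-1-dv6-1. The values on the other side of 0 were 0.22 and 0.02 in Trav1, -0.10 and -0.01 in Trav14-1 and -0.01 in Trav15-1-dv6-1. The summed Trav CPM of KO over WT ran from 1.01 to 1.07. The KO minus WT difference of the middle share was 0.684 points, -0.375 with all Trav genes and -0.788 with groups of equal genomic span. Leaving out Trav8-2 and Trav16 was chosen after seeing the data. Of 66 alternative log2 changes of named segments 5 had the other sign, and of 39 alternative differences in shares or distance 10 had, among them the distal, proximal and distance values without WT replicate 1 or KO replicate 2. At 3 to 324 counts per segment and library, counting error limits small segments.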
